A study of Mus musculus with 10 samples.

Results

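Astrocytes and their cerebellar relatives, the Bergmann glia, were followed through 10 marker genes: S100b, Slc1a3, Slc1a2, Gdf10, Hopx, Gfap, Vim, Aqp4, Aldh1l1 and Glul. They were taken by gene symbol from 22046 genes, and all 10 were found once. The samples were mouse cerebellum (Mus musculus, C57BL/6 background) of Bmal1-/- knockouts and Bmal1+/+ wild types, which were littermates from heterozygous parents kept in 12 h light and 12 h dark. Bmal1, gene symbol Arntl, encodes a DNA-binding activator that drives the daily clock of cells, and the knockout lacked it in the whole body and not in glia alone. From each lysate, total RNA and ribosome footprints were sequenced, footprints being the 28 to 34 nt stretches that a ribosome shields from RNase I. Their ratio is the translational efficiency. Values came from 8 of the 10 libraries, both kinds for knockouts 1 and 3 and for wild types 2 and 3, so every comparison was 2 against 2 animals. The labels give no age, sex or time of day for the tissue.

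Astrocytes take up glutamate and potassium from the space around synapses, turn glutamate into glutamine, and line blood vessels with endfeet rich in water channels. Bergmann glia are the radial astrocytes of the cerebellar cortex: their cell bodies lie beside Purkinje cells and their fibres ensheathe Purkinje cell synapses up to the brain surface. The markers describe different parts of these cells: calcium binding (S100b), the filament skeleton (Gfap, Vim), glutamate handling (Slc1a2, Slc1a3, Glul), water transport (Aqp4), folate metabolism (Aldh1l1), and genes linked to Bergmann glia and radial progenitors (Gdf10, Hopx). Most are not exclusive to astrocytes, since Vim is also made by vessels, meninges and ependyma, and S100b and Glul also by oligodendrocytes.

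S100b and Glul, whose total RNA fell in the knockout, have the following 250 bases upstream of their annotated start in RefSeq (GRCm38.p6). They are shown as a description of sequence, and a link between their motifs and the falls was not tested. The window of Vim, which also fell, is not printed. Capitals mark the CCAAT box (CCAAT or its complement ATTGG) and, in Glul, the motif TAGGTCA bound by ROR and REV-ERB factors of the clock.
S100b, chr10:76253586-76253835, plus strand: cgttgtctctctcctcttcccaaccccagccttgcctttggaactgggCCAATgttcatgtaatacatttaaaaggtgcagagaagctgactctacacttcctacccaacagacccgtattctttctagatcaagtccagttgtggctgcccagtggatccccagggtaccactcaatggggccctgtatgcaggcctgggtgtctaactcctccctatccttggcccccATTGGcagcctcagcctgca
Glul, chr1:153899679-153899928, plus strand: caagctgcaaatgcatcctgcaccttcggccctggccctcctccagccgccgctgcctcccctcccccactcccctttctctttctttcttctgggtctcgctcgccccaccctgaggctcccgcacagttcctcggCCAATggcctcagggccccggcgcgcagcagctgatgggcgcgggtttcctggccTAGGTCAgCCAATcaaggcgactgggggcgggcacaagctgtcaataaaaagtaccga

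In Glul, TAGGTCA began 58 bases before the start and the CCAAT boxes 113 and 50 bases before it. In S100b the CCAAT boxes began 202 and 20 bases before the start. Of the 10 markers, 9 had a window, Hopx with 2 of them, and Aqp4 had none. On both strands, CACGTG, the E-box to which BMAL1 binds with its partner CLOCK, occurred only in a window of Hopx (86 bases before the start), and 6.02% of all 32851 windows held it. Its variant CACGTT occurred in the other window of Hopx (3.85% of all windows), the D-box TTATGNAA in that of Slc1a2 (3.07%) and TAGGTCA in that of Glul (2.23%). CCAAT occurred in 6 of the 9 genes (33.85% of all windows) and TATAAA in Vim and Slc1a3 (12.37%). A match of letters is a description of the window and does not show that a factor binds there.

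Recovered reads were 25.6 M to 43.2 M in total RNA and 27.7 M to 41.0 M in footprints, and for total RNA each knockout had more reads than either wild type. For the markers themselves, reads per library ranged from 1942 to 6152 in the least covered gene, Aldh1l1, and from 36468 to 111584 in Slc1a3. Values are RPKM, reads scaled by a gene length and by library depth. The factor from reads to RPKM was not the same for all genes. Levels are therefore compared within a gene, and sums or ratios of genes only between animals. The targeted gene Arntl had footprints of 123.7 and 107.0 RPKM in the knockouts against 257.6 and 294.7 in the wild types, while its total RNA was 267.4 and 272.2 against 178.8 and 179.4. Its total RNA was higher in the knockout (0.59, limma adjusted p = 0.0158) and gives no check of the genotype labels, while its translational efficiency was lower, at 0.463 and 0.393 against 1.44 and 1.64 (-1.84, limma adjusted p = 0.0367). In markers of neighbouring tissue the wild types stood apart: wild type 3 had little choroid plexus RNA (Ttr total RNA 208 RPKM, against 5390 in wild type 2 and 11753 and 13916 in the knockouts), and wild type 2 had Hoxa5, a hindbrain gene, at 40.6 RPKM against 0.727 to 1.57 in the others. Values without either animal are given where they change a result.

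In total RNA, 3 of the 10 markers fell in the knockout, Vim, Glul and S100b, and none rose by the test used (limma on log2(RPKM + 1), adjusted p under 0.05 over 12690 genes). Limma-voom on recovered reads called 5, these 3 and Aldh1l1 lower and Gfap higher, among 13.1% of genes. Over all genes 4.09% passed the test in either direction, and 1.61% were called lower. The median log2 difference of the 10 markers was -0.18, beside -0.02 over all genes tested. The knockout and wild-type values did not overlap for 9 markers, 7 lower and 2 higher (Gfap and Aqp4), but with 2 animals in a group that was so for 55.0% of all genes. At an unadjusted p under 0.05 the markers numbered 6, and the genes overall 22.1%. In whole tissue, fewer cells of a type and less RNA per cell cannot be told apart, and the p-values measure the spread between these few animals only.

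**Figure D1:**
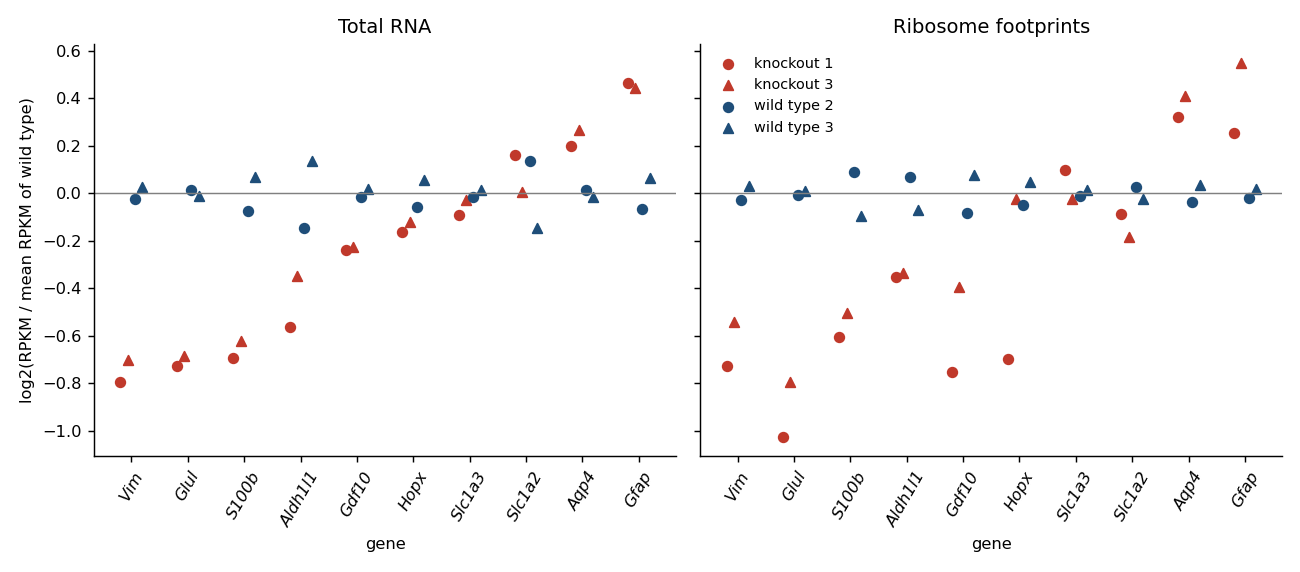
Total RNA (left) and footprints (right) of each marker in each animal, as log2 of RPKM over the mean of the 2 wild types (no pseudocount, line at 0 = wild-type mean); red points are knockouts, blue points wild types. Vim, Glul and S100b lie below the wild types in both panels and Gfap and Aqp4 above them, while Slc1a3 and Slc1a2 lie near 0.

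The filament genes Vim and Gfap differed in opposite directions. Vim (ENSMUSG00000026728, chr2:13573927-13582826 of mm10) encodes vimentin, the intermediate filament protein of radial and immature glia, and also of vessel and meningeal cells. Its total RNA was 79.1 and 84.3 RPKM in knockouts 1 and 3 and 134.7 and 139.5 RPKM in wild types 2 and 3. Both knockouts were well below both wild types, and the means of 81.7 ± 3.65 and 137 ± 3.37 (SD, n = 2) were further apart than the animals of either group. Vim RNA fell by 0.74 on the log2 scale (SE 0.09, 95% interval -0.95 to -0.53, limma adjusted p = 0.0119), a larger decrease than in all but 1.5% of genes.

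Gfap (ENSMUSG00000020932, chr11:102887336-102900912) encodes the glial fibrillary acidic protein, the filament of mature astrocytes, which increases in reactive astrocytes. Knockouts 1 and 3 had 104.1 and 102.5 RPKM in total RNA and wild types 2 and 3 had 72.1 and 78.8 RPKM, so that both knockouts were above both wild types. The means were 103 ± 1.17 and 75.5 ± 4.71 RPKM (SD, n = 2), a difference of 36.9%. On the log2 scale the difference was 0.45 (SE 0.09, 95% interval 0.23 to 0.67) and just missed the threshold (limma adjusted p = 0.0515). It passed in 2 of 11 alternative settings. These were a filter at a mean read count of at least 100 (limma adjusted p = 0.0286) and limma-voom on recovered reads (adjusted p = 0.000887). It did not pass with no filter (limma adjusted p = 0.116) or with both kinds of library in one fit (limma adjusted p = 0.148). The log2 difference ranged from 0.387 to 0.512 over the 11 settings. The ratio of Gfap to Vim total RNA put the opposite directions into a single value per animal: 1.32 and 1.22 in the knockouts and 0.535 and 0.565 in the wild types.

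Of 11 other genes of intermediate filaments and their partners, 8 were tested and none was called, with 4 at an unadjusted p under 0.05 and 4 called by limma-voom, all lower. Their median log2 difference in total RNA was -0.38, and 6 of the 8 were below 0. Synemin (Synm), which pairs with vimentin, had 8.05 and 10.4 RPKM in the knockouts and 13.9 and 12.5 in the wild types (adjusted p = 0.136). The neuronal filament gene Nefl had 62.6 and 66.0 RPKM in the knockouts, 107 in wild type 2 and 79.8 in wild type 3. Nefh and Nefm were also highest in wild type 2, the animal with the highest Hoxa5, while Ina was highest in knockout 3. A link between these genes and Hoxa5 was not tested. Nes (nestin), a filament of progenitors, had 50.9 and 41.2 against 66.8 and 47.4 RPKM, and its groups overlapped.

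Among the glutamate genes, Glul fell and the transporters showed no difference that passed the test. Glul (ENSMUSG00000026473, chr1:153899944-153909723) encodes glutamine synthetase, the astrocyte enzyme that turns glutamate and ammonia into glutamine. Its total RNA was 68.7 and 70.6 RPKM in knockouts 1 and 3 and 114.5 and 112.6 RPKM in wild types 2 and 3. The animals of a group differed little, with means of 69.7 ± 1.41 and 114 ± 1.35 RPKM (SD, n = 2), and the groups were far apart. Glul RNA fell by 0.7 on the log2 scale (SE 0.08, 95% interval -0.9 to -0.5, limma adjusted p = 0.0128), and only 1.8% of genes had a lower value.

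Slc1a3 and Slc1a2 encode the glutamate transporters GLAST and GLT-1, which clear glutamate from synapses, GLAST being the main one of Bergmann glia. Slc1a3 (ENSMUSG00000005360, chr15:8634124-8710764) had 1487 and 1551 RPKM in the knockouts and 1569 and 1599 RPKM in the wild types in total RNA. The knockouts were slightly lower in each case, by -0.06 on the log2 scale (SE 0.07, 95% interval -0.23 to 0.11, limma adjusted p = 0.647). Slc1a2 (ENSMUSG00000005089, chr2:102658659-102790784) had 2455 and 2207 RPKM in the knockouts and 2411 and 1984 in the wild types, with overlapping groups and a log2 difference of 0.09 (95% interval -0.18 to 0.36, limma adjusted p = 0.683). Glul over Slc1a3 in total RNA was 0.0462 and 0.0455 in the knockouts and 0.073 and 0.0704 in the wild types. This ratio restates the fall of Glul beside a level Slc1a3 and is no further result.

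Of 14 other genes of glutamate uptake and the glutamine cycle, 13 were tested and 1 rose by limma, Slc38a3, which encodes a glutamine transporter (SNAT3) of astrocytes. Its total RNA was 39.0 and 41.8 RPKM in the knockouts and 23.3 and 23.2 in the wild types, a log2 fold change of 0.77 (SE 0.09, limma adjusted p = 0.0135). Limma called none lower, and the list's median was -0.01. Limma-voom called 2 higher and 2 lower, and 4 had an unadjusted p under 0.05. Glutamate dehydrogenase, Glud1, had 543 and 563 RPKM in the knockouts against 504 and 527 in the wild types (limma adjusted p = 0.474).

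S100b fell as well. It encodes a calcium-binding protein of astrocytes and Bergmann glia that is also secreted (ENSMUSG00000033208, chr10:76253853-76261159). Total RNA was 236.7 and 248.4 RPKM in knockouts 1 and 3 and 363.5 and 401.5 RPKM in wild types 2 and 3. The groups did not overlap, with means of 243 ± 8.24 and 383 ± 26.9 RPKM (SD, n = 2). S100b RNA fell by 0.65 on the log2 scale (SE 0.09, 95% interval -0.87 to -0.44, limma adjusted p = 0.0174). The gene overlaps Dip2a on the other strand, and the counting is not stated to use strand, so reads of the pair cannot be told apart. Dip2a differed the other way, with 1502 and 1506 RPKM in the knockouts and 1260 and 1301 in the wild types (log2 difference 0.23, adjusted p = 0.126). Likewise Glul overlaps Teddm2 on the other strand, a gene at 4.88 to 7.88 RPKM in total RNA (adjusted p = 0.321).

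Other members of the S100 family differed in both directions. Of 11 genes, the family and its receptor, 7 were tested, of which 5 were above and 2 below 0; limma called 1 higher, and limma-voom 3 higher and 1 lower. S100a10, the partner of annexin A2, rose: its total RNA was 652 and 621 RPKM in the knockouts and 363 and 315 in the wild types (0.91, SE 0.09, limma adjusted p = 0.00915). S100a6 had 42.5 and 50.9 against 24.3 and 32.5 RPKM (adjusted p = 0.075), and S100a16 had 154 and 159 against 109 and 122 RPKM (adjusted p = 0.0612), both without passing the test. On the side of S100b, S100a9 had 1.71 and 1.51 RPKM in the knockouts against 5.09 and 2.86 in the wild types (-0.89, limma adjusted p = 0.0927) and S100a1 differed by -0.14 (limma adjusted p = 0.474).

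Each of these 3 decreases, in Vim, Glul and S100b, was lost when a knockout animal was left out: the adjusted p was 0.0832, 0.0948 and 0.116 without knockout 1, and 0.0511, 0.0632 and 0.0668 without knockout 3. They passed without wild type 2 (0.0303, 0.0364 and 0.0269) and without wild type 3 (0.0295, 0.0283 and 0.0358). The size of the difference stayed near its value throughout, from -0.785 to -0.695 for Vim, -0.727 to -0.677 for Glul and -0.725 to -0.582 for S100b over 11 settings.

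Aqp4 encodes aquaporin-4, the water channel of astrocyte endfeet (ENSMUSG00000024411). Its total RNA was 1345 and 1411 RPKM in the knockouts and 1183 and 1161 in the wild types. Both knockouts were higher, with a difference of 17.6% and of 0.23 on the log2 scale (SE 0.07, 95% interval 0.06 to 0.4), which did not pass the test (limma adjusted p = 0.134). The other endfoot genes, 13 in all and all tested, had a median of 0.06 and 9 values above 0. By limma only Gjb6 was called, while limma-voom called 3 higher and 1 lower. Gjb6, connexin 30, a gap junction protein of astrocytes, fell from 11.32 and 11.01 RPKM in the wild types to 5.83 and 6.98 in the knockouts (-0.72, SE 0.12, adjusted p = 0.0354). The other astrocyte connexin, Gja1, was level at 518 and 533 RPKM in the knockouts and 513 and 510 in the wild types. Kcnj10, the potassium channel Kir4.1 that lies beside aquaporin-4 in endfeet, had 199 and 194 RPKM in the knockouts, 175 in wild type 2 and 127 in wild type 3 (adjusted p = 0.204).

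Aldh1l1 encodes an enzyme of folate metabolism that is widely used as a pan-astrocyte marker (ENSMUSG00000030088, chr6:90486427-90600203). Total RNA was 468 and 543 RPKM in the knockouts and 624 and 758 RPKM in the wild types. Both knockouts were lower, but the animals within a group also differed, with means of 506 ± 53.4 and 691 ± 95.1 RPKM (SD, n = 2). The log2 difference of -0.45 (SE 0.12, 95% interval -0.75 to -0.15) did not pass (limma adjusted p = 0.112), while limma-voom on recovered reads gave an adjusted p of 0.00415. Of 14 other genes of folate and one-carbon metabolism, 13 were tested. Mthfd1l, a mitochondrial enzyme of the pathway, fell, with 41.9 and 37.1 RPKM in the knockouts against 62.9 and 64.4 in the wild types (-0.68, limma adjusted p = 0.0234). The list's median was -0.11.

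Gdf10 and Hopx are the markers most tied to Bergmann glia here. Gdf10 (ENSMUSG00000021943, chr14:33923587-33937983), a secreted member of the TGF-beta superfamily, had total RNA of 9.32 and 9.4 RPKM in the knockouts and 10.9 and 11.1 in the wild types. The groups did not overlap, but the log2 difference of -0.21 (SE 0.1, 95% interval -0.46 to 0.03) did not pass (limma adjusted p = 0.283). Hopx (ENSMUSG00000059325, chr5:77086988-77115121), a homeodomain protein of radial glia that does not bind DNA itself, had 451 and 464 RPKM in the knockouts and 484 and 525 in the wild types, a log2 difference of -0.14 (SE 0.08, adjusted p = 0.357). Of 29 other TGF-beta and BMP genes, 28 were tested and none was called by limma, against 4 at an unadjusted p under 0.05 and 3 by limma-voom (2 higher and 1 lower), and their median was 0.01.

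In footprints, where the standard errors were wider for most markers, no marker passed the test. None of the 10 was called by limma, where 0.233% of 12447 genes were, although 7 had an unadjusted p under 0.05 against 10.4% of genes. Limma-voom on recovered reads called 3, Glul, Vim and S100b (1.63% of genes), and a fit of both kinds of library together called the same number. Knockout and wild type did not overlap for 8 markers, 6 lower and 2 higher, against 39.7% of all genes. The median log2 difference was -0.35, beside -0.03 over all genes.

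Glul had the largest footprint difference of the 10 markers. Its footprints were 40.1 and 47.1 RPKM in the knockouts and 81.3 and 82.2 RPKM in the wild types, so both knockouts were far below. The log2 difference was -0.9 (SE 0.14, 95% interval -1.24 to -0.55, limma adjusted p = 0.102, and 0.000942 by limma-voom). Vim had 258 and 293 RPKM against 419 and 436, a log2 difference of -0.63 (SE 0.12, limma adjusted p = 0.16, limma-voom 0.012). S100b had 214 and 229 RPKM against 346 and 304 (-0.55, SE 0.12, limma adjusted p = 0.217, limma-voom 0.0255). The sign of all 3 was that of their total RNA.

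Aldh1l1 footprints were 1099 and 1111 RPKM in the knockouts and 1469 and 1333 in the wild types, with the knockouts close to each other and lower (-0.34, SE 0.1, limma adjusted p = 0.331). Aqp4 footprints were 1480 and 1574 RPKM against 1156 and 1217, again higher in both knockouts (0.36, SE 0.1, limma adjusted p = 0.298). Gfap footprints were 89.3 and 110 RPKM against 74.1 and 75.9, with knockout 1 nearer to the wild types than knockout 3 (0.4, SE 0.15, limma adjusted p = 0.439). The ratio of Gfap to Vim was 0.345 and 0.375 in the knockouts and 0.177 and 0.174 in the wild types. As in total RNA, it restates the opposite directions of these genes and is no further result.

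Gdf10 had fewer footprints in both knockouts, 18.5 and 23.6 RPKM, than in the wild types, 29.3 and 32.8, a log2 difference of -0.55 with a wide interval (-0.98 to -0.11, limma adjusted p = 0.354). Hopx footprints were 130 RPKM in knockout 1 but 207 in knockout 3, which lay between the wild types at 204 and 217 (limma adjusted p = 0.724). Without knockout 1 the log2 difference of Hopx was -0.022. For the transporters, Slc1a3 had 3309 and 3044 against 3065 and 3117 RPKM, overlapping, and Slc1a2 had 1764 and 1652 against 1906 and 1843, lower in both knockouts by 0.13 on the log2 scale without passing (limma adjusted p = 0.952 and 0.765).

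**Figure D2:**
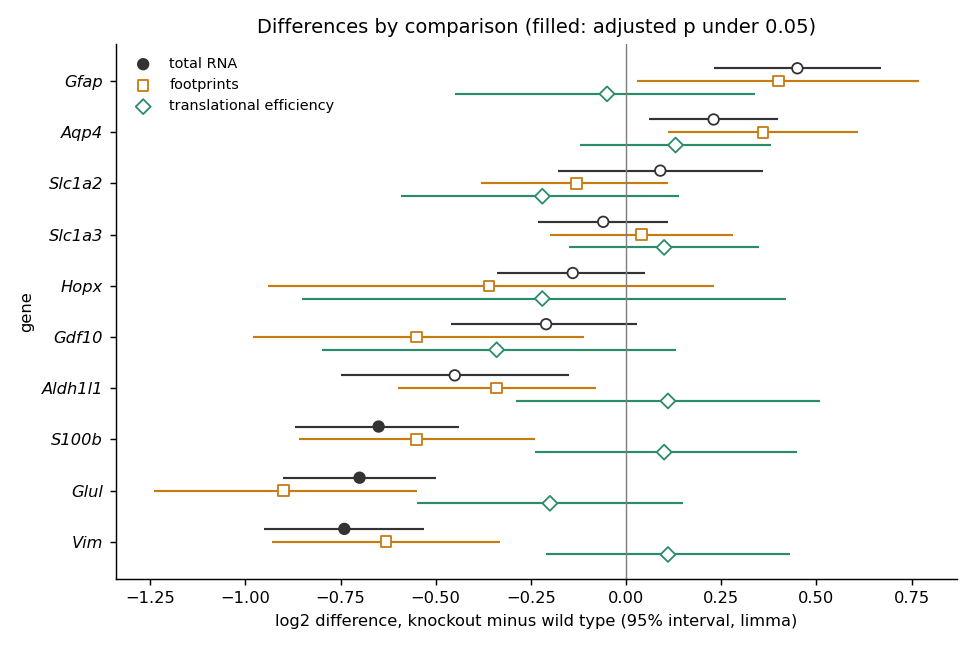
Log2 differences, knockout minus wild type, of each marker in total RNA, footprints and translational efficiency, with 95% intervals from limma and filled symbols where the adjusted p was under 0.05. Vim, Glul and S100b are the filled points, in total RNA only, and the translational efficiency intervals of all 10 markers cross 0.

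Translational efficiency did not differ for any marker by the test (limma, genotype difference in footprints beyond that in total RNA): all 10 had an adjusted p of 0.997, none had an unadjusted p under 0.05 and none was called by limma-voom. Of all 12089 genes, 0.0165% were called, so the test had few calls anywhere. The median of the 10 was 0.02, beside -0.02 over all genes. The ratio of footprints to total RNA did not overlap between genotypes for 6 markers, 3 lower (Slc1a2, Gdf10 and Glul) and 3 higher (Slc1a3, Vim and Aqp4), against 31.7% of all genes. For Vim the log2 difference in efficiency was 0.11 (95% interval -0.21 to 0.43), for S100b 0.1 (-0.24 to 0.45), and for Glul -0.2 (-0.55 to 0.15). For Gdf10 it was -0.34 (-0.8 to 0.13), but -0.172 without knockout 1 and -0.501 without knockout 3; its ratio was 1.98 and 2.52 in the knockouts and 2.7 and 2.94 in the wild types.

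The markers differed more from each other in the ratio of footprints to total RNA than between genotypes. A gene factor that both kinds of library share cancels in this ratio. The counting rule is not given, and a factor that differs between the kinds, such as the part of the transcript covered, would not cancel. Its share in the differences between genes was not tested, so the order below is one of ratios. In the wild types the mean ratio was 3.12 for Vim, above 97.1% of genes, 2.82 for Gdf10 (95.8%), 2.06 for Aldh1l1 (88.2%) and 1.95 for Slc1a3 (86.5%). Aqp4 (1.01), Gfap (0.995), Slc1a2 (0.86) and S100b (0.855) lay near the median of all genes, 0.965. Glul lay lower at 0.72, above 33.8% of genes, and Hopx lowest at 0.417, above 13.2%. Neighbours such as Aldh1l1 and Slc1a3, Aqp4 and Gfap, or Slc1a2 and S100b overlapped across the wild-type animals and have no settled order. The 2 glutamate transporters were apart: Slc1a3 had ratios of 1.95 to 2.22 over the 4 animals and Slc1a2 of 0.718 to 0.929. So were the 2 filament genes, with 3.11 to 3.48 for Vim and 0.857 to 1.07 for Gfap. In the knockouts Vim was again highest (3.37) and Hopx lowest (0.367).

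**Figure D3:**
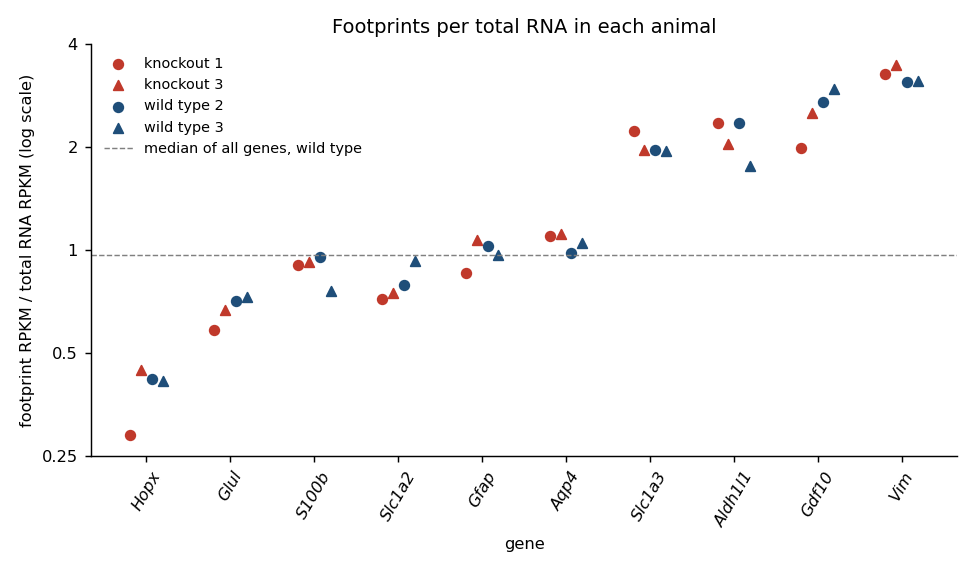
Footprint RPKM over total RNA RPKM of each marker in each of the 4 animals, on a log axis; the dashed line is the wild-type median of all genes, 0.965. Vim, Gdf10, Aldh1l1, Slc1a3 and Aqp4 lie above the line in every animal of both genotypes, and Hopx, Glul, Slc1a2 and S100b below it. Aqp4 and S100b come close to the line, and Gfap lies on both sides of it.

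The wider set of astrocyte and Bergmann glia genes did not fall as a whole. Of 40 further genes, all tested in total RNA, 2 rose and 3 fell, 35 did not pass by limma, and the median was 0.04. Limma-voom called 8 higher and 6 lower, and 15 had an unadjusted p under 0.05; over all genes the shares were 4.09% by limma, 13.1% by limma-voom and 22.1% unadjusted. Fabp7, the brain fatty acid binding protein of radial and Bergmann glia, rose from 17.9 and 16.6 RPKM in the wild types to 244.3 and 248.6 in the knockouts (3.76, adjusted p = 5.62e-05). Apoe, the lipid carrier that astrocytes secrete, rose from 6598 and 7150 RPKM to 10047 and 9459 (0.51, adjusted p = 0.0212). Etnppl, an astrocyte enzyme that breaks down phosphoethanolamine, fell from 32.6 and 33.6 RPKM to 3.71 and 5.44 (-2.63, adjusted p = 0.00232). Itih3, which encodes a heavy chain of the hyaluronan-binding inter-alpha-trypsin inhibitors, fell from 129 and 118 RPKM to 68.6 and 61.9 (-0.91, adjusted p = 0.00964), and the third gene was Gjb6. Fabp7 and Etnppl were also called in footprints (4.16 and -2.58, adjusted p = 0.00262 and 0.014).

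Among 19 genes of Bergmann glia glutamate receptors and radial glia factors, 18 were tested and Etv5, a transcription factor downstream of FGF signals, fell, with 23.2 and 26.7 RPKM in the knockouts and 41.6 and 44.0 in the wild types (-0.76, SE 0.11, adjusted p = 0.0212). The list's median was 0.1, limma-voom called 2 higher and 1 lower, and the AMPA receptor genes Gria1 and Gria4 differed by 0.17 and -0.16 without passing. A list of 31 reactive astrocyte genes had 16 that reached a mean RPKM of 1 in total RNA and were tested. Of these Vcan, a matrix proteoglycan, fell (8.46 and 7.41 RPKM in the wild types, 4.16 and 4.42 in the knockouts, -0.75, limma adjusted p = 0.0299). None was called higher by limma or limma-voom, and limma-voom called 3 lower. In either direction, 6 had an unadjusted p under 0.05. Of the 16 genes, 7 were above and 9 below 0, and the median was -0.08. Stat3, a regulator of reactive astrocytes, had 43.8 and 43.4 RPKM against 42.4 and 45.4. Apart from Fabp7 and Etnppl, none of these lists had a gene called by limma in footprints, and none in translational efficiency. At an unadjusted p under 0.05 the lists had 1 to 10 genes in footprints and 0 to 2 in translational efficiency, and limma-voom called 0 to 6 and 0.

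**Figure D4:**
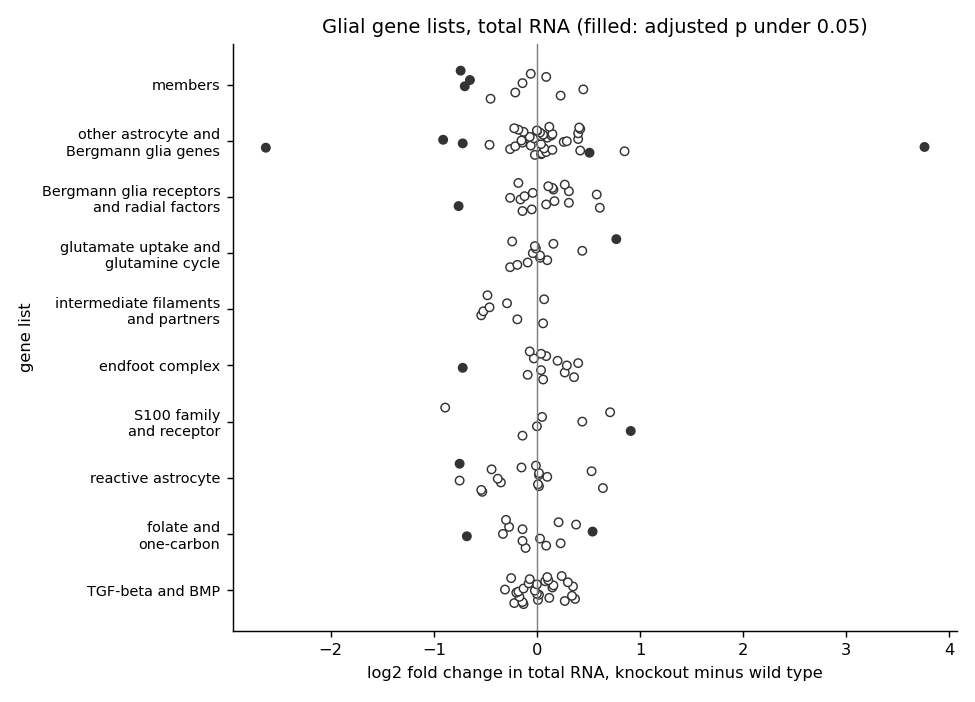
Log2 fold changes in total RNA, knockout minus wild type, of every tested gene in each glial list, 1 point per gene (vertical spread within a list carries no value); filled points had an adjusted p under 0.05. The 3 filled markers lie between -0.74 and -0.65, and the other lists centre near 0 apart from the intermediate filament list, whose median is -0.38.

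Markers of other cell types that share some of these genes also differed between the groups. For 12 microglia genes the summed total RNA was 267 and 282 RPKM in the knockouts and 359 and 377 in the wild types. All 10 that were tested were below 0 and Ctss (-0.53) and C1qb (-0.57) fell by limma, with 6 called lower by limma-voom. For 16 oligodendrocyte genes it was 2320 and 2244 against 3189 and 2636 RPKM, and Mag fell by limma (-0.39, adjusted p = 0.0438), with 6 called lower and 1 higher by limma-voom, while Mbp, at 667 and 567 against 963 and 596, overlapped. For 10 ependyma genes it was 167 and 213 against 314 and 313 RPKM. Only 4 of the 10 were tested and Dnah11, with the largest total RNA values, fell (-1.36, limma adjusted p = 0.00847), while Foxj1, the ciliary regulator, was at 33.8 and 41.7 against 31.9 and 28.2. In footprints the ependyma sum ran the other way, at 99.8 and 111 RPKM in the knockouts and 85.7 and 89.0 in the wild types. Sums of RPKM are led by the gene with the largest values, which also depend on its factor from reads to RPKM. They compare animals and do not rank genes by amount of RNA. No marker of these 3 lists was listed at 0 in total RNA.

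For 11 meningeal genes the sums overlapped, at 519 and 519 RPKM in the knockouts and 524 and 497 in the wild types, with Igfbp2 called higher (1.07) and Dcn lower (-0.82). Endothelial and mural genes, 12 in number, summed to 548 and 468 against 504 and 361 RPKM, and Cldn5 rose (0.84). Granule neuron genes, 12 in number, summed to 6839 and 6531 against 5212 and 5670 RPKM, and Fat2 (0.55) and Grin2c (0.73) rose by limma, 6 were called higher by limma-voom and 6 had an unadjusted p under 0.05. Purkinje cell genes, 12 in number, summed to 32130 and 35220 against 34810 and 39990 RPKM with none called by limma, 1 at an unadjusted p under 0.05 and 1, lower, by limma-voom. Choroid plexus genes were highest in the knockouts (12474 and 14683 RPKM against 5721 and 266), with Prlr and Sostdc1 called, and the 12 brainstem and midbrain genes were highest in wild type 2 (183 RPKM against 69.3 to 95.4), with Slc17a6 lower and Tph2 higher. The part that any of these cell types had in the values of Vim, Glul, S100b or the other markers was not tested. Without wild type 2, the animal with the high brainstem genes, the log2 fold changes were -0.765 for Vim, -0.685 for Glul and -0.725 for S100b. Without wild type 3, the animal with little choroid plexus RNA, they were -0.715, -0.709 and -0.582.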

How the data were processed

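The authors deposited RPKM per gene and library and a table of translational efficiency as a ratio, per the file headers. The submitters' processing notes name STAR, Bowtie, Cufflinks and the build mm10; versions, roles and the counting rule are not given in the sources used here. All 47790 efficiency values checked (RPKM of at least 1 in both libraries) equalled footprint over total RNA RPKM of the animal within 2%. Whole reads were recovered from RPKM, relative depth and the authors' mean read count: in 549 genes averaging under 20 reads, 99.93% of the 4392 values were whole to within 0.1.

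Differences were fitted with limma 3.58.1 (R 4.3.3), trended variance, on log2(RPKM + 1) of genes whose mean RPKM reached 1, with Benjamini-Hochberg adjustment over all genes tested and a threshold of 0.05. A log2 fold change with a pseudocount understates the change of low genes. Translational efficiency was tested as an interaction between genotype and library kind. Scripts were tested on simulated data. The total RNA of knockout 2 and wild type 1 was not analysed here, so the planned comparisons became 2 against 2. Footprints and total RNA of an animal came from 1 lysate, per the labels' protocols, which pairs them.

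Coordinates are GENCODE M21, in which 21951 gene IDs were found, 96.5% with the same span. Named genes were all 10 markers and, of every other list, the genes called, at most the 4 with the smallest adjusted p, and for choroid plexus, brainstem and ependyma the one with the highest mean; further genes were named after their values were seen. The markers and lists were chosen with earlier results of these data known. Some genes of the lists are not reported here.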

Additional observations from a re-analysis of the deposited data

How the results depend on the processing

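The number of markers called in total RNA was 3 under most settings, and 4 with a filter at a mean read count of at least 100. It was 0 with no filter on low values, 5 with limma-voom on recovered reads, and 0 to 3 when 1 animal was left out. In footprints it was 0, but 3 with limma-voom and 3 with both kinds of library in one fit. In translational efficiency it was 0 under every alternative run, including the animal as a replicate block, where 1 gene of all was called against 2 without the block; this paired fit changed no marker's call. No blocked fit of total RNA or footprints was possible, because each animal has 1 genotype and gave 1 analysed library of each kind. Signs changed only when an animal was left out: Slc1a2 total RNA ranged from -0.051 to 0.23, Slc1a3 footprints from -0.022 to 0.098, and translational efficiency of S100b from -0.061 to 0.27, Hopx from -0.53 to 0.099, Gfap from -0.212 to 0.105 and Aldh1l1 from -0.104 to 0.317. The cause of these changes was not tested. Over all genes, calls in total RNA numbered 519, 26 with no filter, 1621 by limma-voom and 117 to 563 with 1 animal left out; in footprints they numbered 29, 1 with no filter, 315 in the fit of both kinds and 1 to 6 with 1 animal left out.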
